A study of Rattus norvegicus with 4 samples.

Results

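The genes described here are the rat cadherin superfamily adhesion genes: classical and atypical cadherins (Cdh), non-clustered and clustered protocadherins (Pcdh), and the Fat and Celsr genes. They were chosen by symbol alone, leaving out Cdh5 and the Cdhr genes, and 55 of the 15443 named genes on the array belong to them. RNA came from depressive and control male rats, sorted by their immobility in a forced swimming test given to 106 normal rats, in which the depressive rats showed depressive-like behaviour and the control rats were average. In each group, RNA of 4 rats was pooled, and each pool was put on 1 one-colour array, so that the groups were depressive cerebellum, control cerebellum, depressive prefrontal cortex and control prefrontal cortex. The labels name no drug treatment. All rats used had swum 1 week before they were killed under isoflurane and perfused with cold saline, and strain and age are not given in the sources used here. The same rats may have given both tissues, and with pools no spread between animals can be seen.

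Cadherins are membrane proteins that join neighbouring cells through calcium-dependent extracellular repeats. Classical cadherins bind their own kind across the cell contact and are tied to actin through catenins, while clustered protocadherins are expressed in different combinations by single neurons and give them a surface identity. In the developing brain, cadherins sort neurons into nuclei, layers and circuits, and the very large Fat and Celsr proteins act in planar polarity and neurite growth.

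The promoters of the clustered protocadherins are known to carry a conserved element with a CGCT core that CTCF binds, so the bases before these genes are shown first. The sequences are those of RefSeq on build GRCr8, on the plus strand, and 45 of the 55 genes had a window of 250 bases before the start. The word GGTGGCGCT, searched on both strands, was one of 2 words of 9 bases shared by the most clustered windows (11 of 23), and it was picked after the windows had been looked at. Each line gives the word in capitals with 16 bases on either side.

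Pcdhb2, chr18:29279917-29279957: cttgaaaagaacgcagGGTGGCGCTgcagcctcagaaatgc
Pcdhb3, chr18:29285598-29285638: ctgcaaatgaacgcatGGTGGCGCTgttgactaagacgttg
Pcdhb4, chr18:29292205-29292245: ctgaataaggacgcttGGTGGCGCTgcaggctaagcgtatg
Pcdhb5, chr18:29302398-29302438: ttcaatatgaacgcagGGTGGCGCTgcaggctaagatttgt
Pcdhb6, chr18:29320146-29320186: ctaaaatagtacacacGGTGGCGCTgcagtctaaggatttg
Pcdhb8, chr18:29339252-29339292: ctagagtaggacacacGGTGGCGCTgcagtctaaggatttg
Pcdhb9, chr18:29379242-29379282: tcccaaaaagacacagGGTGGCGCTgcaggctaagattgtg
Pcdhb10, chr18:29391772-29391812: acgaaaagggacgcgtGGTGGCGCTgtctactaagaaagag
Pcdhb12, chr18:29413642-29413682: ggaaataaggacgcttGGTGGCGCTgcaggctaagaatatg
Pcdhb20, chr18:29485804-29485844: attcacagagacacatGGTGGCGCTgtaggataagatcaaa
Pcdhb21, chr18:29492143-29492183: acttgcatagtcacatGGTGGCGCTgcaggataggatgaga

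All 11 Pcdhb windows (100%) held the word, against 123 of 33469 windows in the whole table (0.368%). None of the 11 Pcdhga and Pcdhgb windows and not the single Pcdhgc window held it. Because the word was picked as one shared by the most clustered windows, these shares follow in part from that choice and test nothing. Of the 22 windows of other cadherin genes, 1 held it, on the opposite strand, in the gene of the classical cadherin Cdh15, where the capitals mark the reverse complement.

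Cdh15, chr19:67814589-67814629: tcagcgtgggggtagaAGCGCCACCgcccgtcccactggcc

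Pcdhga5, Pcdhga8 and Pcdhga11 are among the clustered genes at 2-fold or more between the tissues, described further on. Their whole windows are printed for comparison in lower case, since they hold no copy of the word. That says only that these letters are not in these bases. The shorter core CGCT does occur in each of these windows, so lacking the word does not mean lacking the element. Whether the element is present was not tested.

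Pcdhga5, chr18:29770690-29770939: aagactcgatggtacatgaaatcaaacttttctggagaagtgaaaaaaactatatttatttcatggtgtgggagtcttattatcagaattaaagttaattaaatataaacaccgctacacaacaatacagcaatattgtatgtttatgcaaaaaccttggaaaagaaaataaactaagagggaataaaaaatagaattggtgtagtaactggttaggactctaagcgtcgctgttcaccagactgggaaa
Pcdhga8, chr18:29804863-29805112: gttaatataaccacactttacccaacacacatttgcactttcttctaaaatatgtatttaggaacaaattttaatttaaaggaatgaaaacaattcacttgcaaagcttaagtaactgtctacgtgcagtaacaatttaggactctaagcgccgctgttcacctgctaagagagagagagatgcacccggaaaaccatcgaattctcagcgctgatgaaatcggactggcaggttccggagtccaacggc
Pcdhga11, chr18:29834356-29834605: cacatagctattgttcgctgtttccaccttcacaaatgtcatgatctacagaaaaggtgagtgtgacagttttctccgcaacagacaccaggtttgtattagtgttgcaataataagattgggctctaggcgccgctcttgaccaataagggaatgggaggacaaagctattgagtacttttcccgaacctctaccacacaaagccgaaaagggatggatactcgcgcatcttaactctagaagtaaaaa

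Before the comparisons, the arrays were checked against their tissue labels. Signals are processed intensities in arbitrary units. For every difference each array was scaled to its own 75th percentile, which was 4365 and 4009 on the depressive and control cerebellum arrays, against 3274 and 3119 on the depressive and control prefrontal cortex arrays. Of 17 cerebellum marker genes, 17 were at 2-fold or more higher in cerebellum in both states. Of 16 cortex markers, 15 were lower in cerebellum in both states and 12 by 2-fold or more, and the exception, Neurod2, differed by 0.42 on the log2 scale in depressive rats and 0.48 in control rats. In tissue pieces, fewer cells of a type and less RNA per cell cannot be told apart.

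The cadherin genes differed widely between the tissues and in nearly the same way in both states. At 2-fold or more between cerebellum and prefrontal cortex stood 25 of 50 measured genes in depressive rats (10 higher, 15 lower in cerebellum) and 26 of 51 in control rats (11 higher, 15 lower). Over all genes the share was 23.7% in depressive rats (9.15% higher, 14.5% lower) and 24.1% in control rats (9.95% higher, 14.1% lower). The same direction at 2-fold or more in both states was found for 24 of 50 genes, 10 higher and 14 lower, beside 20.9% of all genes (8.07% higher, 12.8% lower). The median difference was -0.06 on the log2 scale in depressive rats and 0.16 in control rats, against -0.06 and -0.01 over all genes. Of 50 genes measured in both states, 44 had the same sign in both, and the 6 others (Cdh20, Cdh8, Pcdhb2, Pcdhb21, Pcdhb3 and Pcdhga12) lay close to 0 in at least 1 state. Cdh16, Cdh17, Cdh19 and Cdh26 were not well above background on any array, and a signal is called well above background by the scanner software's own flag.

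A limma fit of tissue over all 4 arrays, with state as a covariate and Benjamini-Hochberg adjustment over 13051 genes, called 42 of the 51 cadherin genes that entered it, 20 higher and 22 lower in cerebellum. Over all genes it called 63.7% (29.6% higher, 34.1% lower). It rests on 2 pools per tissue and 1 residual degree of freedom. Its residual is the gap between the tissue differences of the 2 states, moderated with a variance drawn from all genes (1.55 prior degrees of freedom). Where that gap is near 0, as for Fat1, the SE comes mostly from the shared variance. Its p-values therefore measure no spread between animals. The adjusted p-values given below for single genes come from it. The fit takes signals not well above background as they are. For Fat2 (fitted log2 difference 9.94), Cdh9 and Pcdhga5 the p-value therefore belongs to the fitted difference and not to the bound. Most genes below are named for differing by 2-fold or more in both states. That their tissues do not overlap follows largely from that choice.

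**Figure D1:**
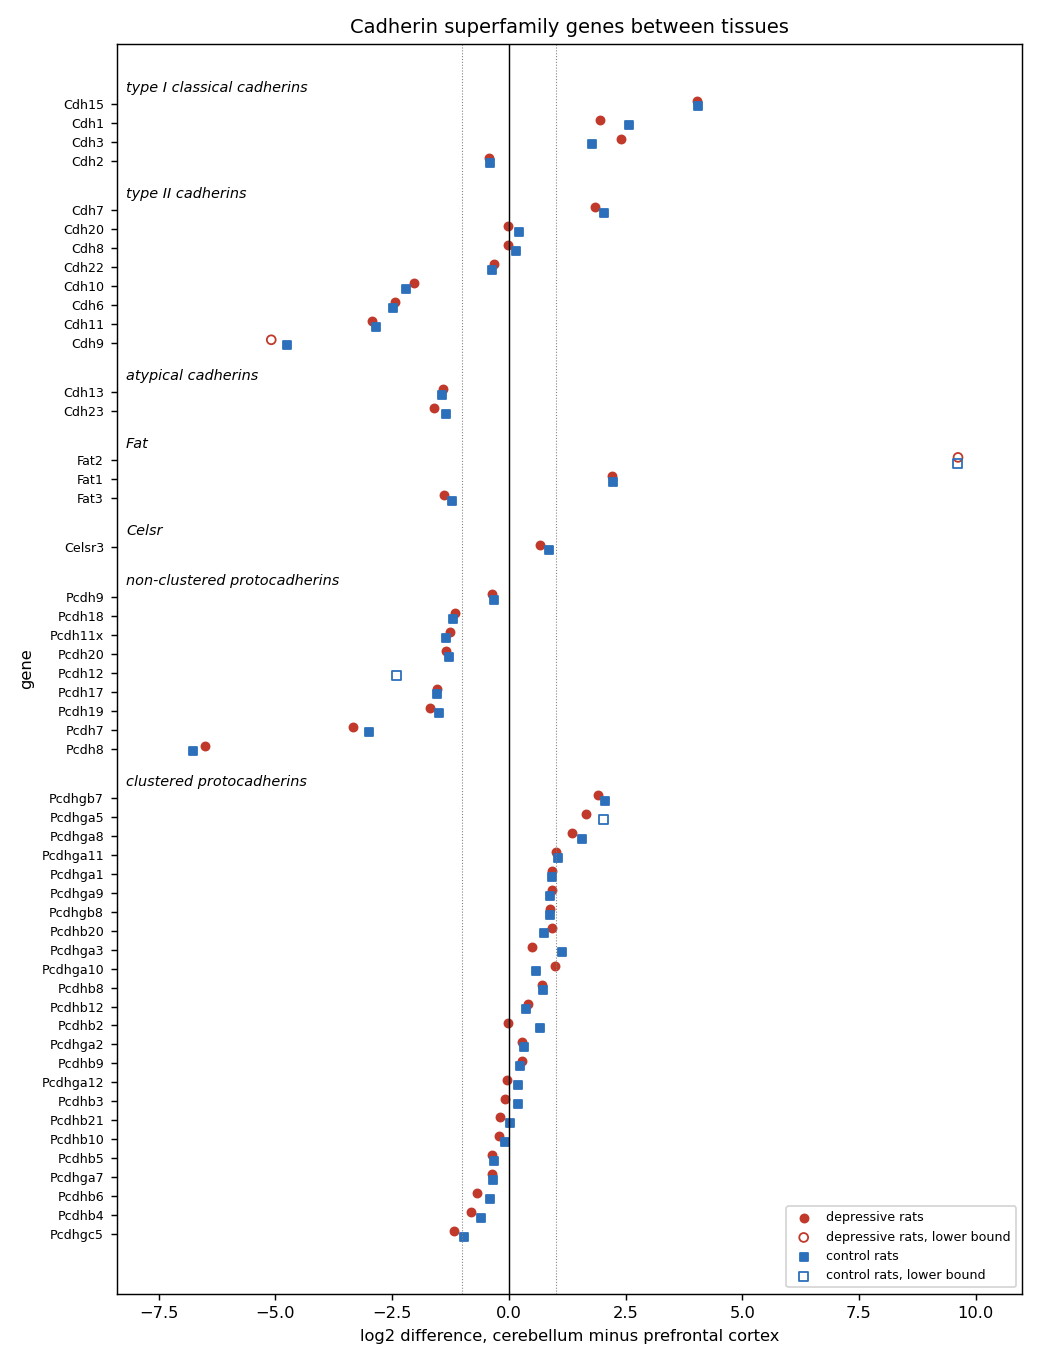
Log2 difference (cerebellum minus prefrontal cortex, 75th percentile scaling) of each of the 51 measured genes, by role, in depressive rats (red) and control rats (blue), from 1 array per group. Open points are lower bounds on the size of a difference, and dotted lines mark 2-fold. Fat2 and Pcdh8 lie farthest from 0, and all 9 non-clustered protocadherins lie left of 0, Pcdh12 by a bound in control rats only.

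Among the Fat genes, 2 were higher and 1 lower in cerebellum. Fat2, an atypical cadherin known from the parallel fibres of cerebellar granule cells, gave signals of 9317 in depressive and 9556 in control cerebellum, against 5.69 in depressive and 9.52 in control prefrontal cortex. Both cortex signals were not well above background, so the fold is a bound: at least 788-fold higher in cerebellum in depressive rats and at least 781-fold in control rats (adjusted p = 0.0028). The mean log2 difference over the states, 9.62, became 6.60 under normexp background correction, which adds an offset of 50 to every signal, and 8.13 with the mean over both Fat2 probes. A second, dimmer Fat2 probe gave 1064 and 1205 in depressive and control cerebellum, against 5.6 and 5.4 in depressive and control prefrontal cortex. Fat1, a very large cadherin that acts on actin and cell polarity, was bright in both tissues, with 39095 and 37880 in depressive and control cerebellum, against 6340 and 6316 in depressive and control prefrontal cortex. The tissues did not overlap, and the fit put Fat1 higher in cerebellum by 2.22 ± 0.05 (SE) on the log2 scale (adjusted p = 0.0028). Fat3, which shapes the dendrites of amacrine cells in the mouse retina, ran the other way, with 269 and 283 in depressive and control cerebellum, against 523 and 512 in depressive and control prefrontal cortex. Its log2 difference was -1.38 in depressive and -1.22 in control rats (adjusted p = 0.00537).

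Celsr3, a planar polarity cadherin needed for axon tracts in the mouse, was the only Celsr gene named on the array. It gave 2131 and 2066 in depressive and control cerebellum, against 1004 and 892 in depressive and control prefrontal cortex. Both cerebellum signals were above both cortex signals, by 0.76 ± 0.07 (SE) on the log2 scale (adjusted p = 0.0112), which is under 2-fold.

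Of the 4 type I classical cadherins, the fit called 3 higher and 1 lower in cerebellum, beside 29.6% and 34.1% of all genes. Cdh15, or M-cadherin, known from muscle and also from cerebellar granule cells in the mouse, gave 3857 and 3815 in depressive and control cerebellum, against 178 and 180 in depressive and control prefrontal cortex. The 2 states were nearly alike within each tissue and the tissues lay far apart, 16.3-fold in depressive and 16.5-fold in control rats (adjusted p = 0.00275). Among the 22 windows of cadherin genes outside the protocadherin cluster, its own was the one that held the word shown above.

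Cdh1, the E-cadherin of epithelia, gave 542 and 432 in depressive and control cerebellum, against 105 and 56.7 in depressive and control prefrontal cortex. Cerebellum was 3.89-fold higher in depressive and 5.92-fold higher in control rats (adjusted p = 0.00967). Cdh3, or P-cadherin, gave 547 and 333 in depressive and control cerebellum, against 78 and 75 in depressive and control prefrontal cortex, so that cerebellum was 5.26-fold higher in depressive and 3.45-fold higher in control rats (adjusted p = 0.0108). For both genes the tissues did not overlap, but the size of the difference varied more between the states than for Cdh15. Under normexp their mean log2 differences of 2.26 and 2.09 became 1.5 and 1.41. Markers of meninges and choroid plexus were higher in cerebellum too: 11 of 11 meningeal and fibroblast markers in both states (median log2 difference 1.01 in depressive and 1.68 in control rats), and 11 of 11 choroid plexus markers (6 and 5.16). Between the states these medians went opposite ways, the meningeal being larger in control and the choroid plexus in depressive rats. Oligodendrocyte markers were mostly higher in cerebellum too, 11 of 12 in depressive and 12 of 12 in control rats (median 0.73 and 1.05). Other lists went the other way. Endothelial markers were lower in cerebellum in 7 of 8 in both states (median -0.60 in depressive and -0.53 in control rats). Red cell markers were lower in 5 of 5 (-0.70 and -1.11). Pituitary markers were higher in 2 of 4 in depressive and 6 of 8 in control rats. Over all genes the median was -0.06 in depressive and -0.01 in control rats. The part of these cell types in the cadherin differences was not tested.

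Cdh2, the N-cadherin of most neurons, was nearly even between the tissues, with unscaled signals of 1638 and 1460 in depressive and control cerebellum, against 1650 and 1500 in depressive and control prefrontal cortex. After scaling it was lower in cerebellum by 0.43 in depressive and 0.40 in control rats on the log2 scale (fit -0.41 ± 0.05 SE, adjusted p = 0.0152).

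Type II cadherins, which differ from type I in their adhesive domain and mark distinct sets of neurons, were mostly lower in cerebellum. Of the 8 that entered the fit, 5 were called lower and 1 higher, beside 34.1% and 29.6% of all genes. Cdh9, which acts at mossy fibre synapses in the mouse hippocampus, gave 16.3 and 19 in depressive and control cerebellum, against 416 and 400 in depressive and control prefrontal cortex. The depressive cerebellum signal was not well above background, so cerebellum was at least 34.1-fold lower in depressive rats, and 27.0-fold lower in control rats (adjusted p = 0.00287). The mean log2 difference over the states, -4.92, became -2.90 under normexp. Both cerebellum arrays thus lay close to background and both cortex arrays far above it.

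Cdh11, also known as OB-cadherin from bone, gave 175 and 176 in depressive and control cerebellum, against 1004 and 988 in depressive and control prefrontal cortex, and was 7.64-fold and 7.23-fold lower in cerebellum in depressive and control rats (adjusted p = 0.00275). Cdh6, or K-cadherin, gave 616 and 576 in depressive and control cerebellum, against 2530 and 2519 in depressive and control prefrontal cortex (adjusted p = 0.0028). Cdh10 gave 498 and 410 in depressive and control cerebellum, against 1523 and 1472 in depressive and control prefrontal cortex (adjusted p = 0.00358). In all 3 genes every cerebellum signal lay below every cortex signal.

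Cdh7 was the type II cadherin that ran the other way, with 2303 and 2138 in depressive and control cerebellum, against 481 and 403 in depressive and control prefrontal cortex. It was 3.59-fold higher in cerebellum in depressive and 4.12-fold higher in control rats (adjusted p = 0.00419). The bright Cdh22 was called lower by a small margin, -0.32 in depressive and -0.36 in control rats on the log2 scale (adjusted p = 0.0217), from unscaled signals of 23478 and 22492 in depressive and control cerebellum, against 21936 and 22392 in depressive and control prefrontal cortex. That call was lost under quantile normalization and without the depressive cerebellum or the control prefrontal cortex array. Cdh8 and Cdh20 did not pass the test (adjusted p = 0.458 and 0.378).

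Both measured atypical cadherins were lower in cerebellum. Cdh13, or T-cadherin, which is held to the membrane by a lipid anchor and has no cytoplasmic part, gave 8123 and 7804 in depressive and control cerebellum, against 16249 and 16383 in depressive and control prefrontal cortex (2.67-fold and 2.70-fold, adjusted p = 0.00354). Cdh23, part of the tip link of inner ear hair cells, gave 233 and 228 in depressive and control cerebellum, against 529 and 452 in depressive and control prefrontal cortex (adjusted p = 0.00625). The tissues did not overlap for either gene.

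**Figure D2:**
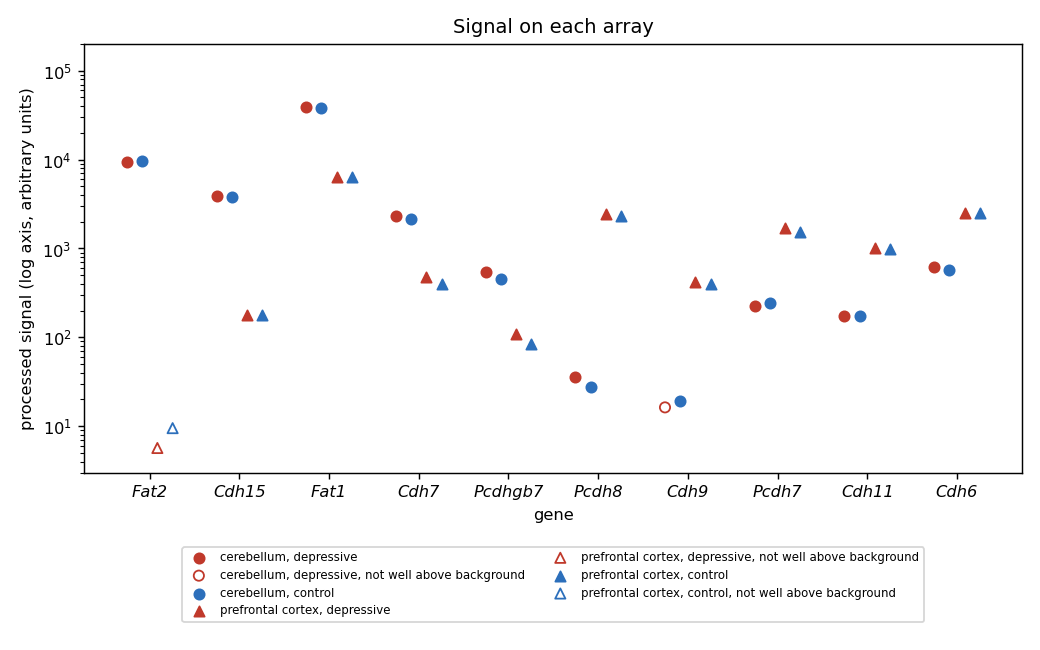
Processed signal (log axis, arbitrary units, before scaling) of 10 genes on each of the 4 arrays, with circles for cerebellum, triangles for prefrontal cortex, red for depressive and blue for control rats. Open symbols were not well above background. All 10 differed between tissues by 2-fold or more in both states, so that the tissues lie apart follows from the choice. The states lie closer together than the tissues, as for Cdh15 with 3857 and 3815 against 178 and 180. The 2 Fat2 signals in prefrontal cortex, 5.69 and 9.52, were not well above background. Cdh1 and Cdh3, named below for their differences between states, are not shown.

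The non-clustered protocadherins moved one way. Of 9 in the fit, 8 were called lower in cerebellum and 0 higher, beside 34.1% and 29.6% of all genes. Of the 8 measured in both states, 7 were at 2-fold or more lower in both, beside 12.8% of all genes. The median log2 difference was -1.44 in depressive and -1.50 in control rats. Pcdh8, known in the rat as arcadlin, an adhesion protein induced by synaptic activity, gave 35.5 and 27.6 in depressive and control cerebellum, against 2427 and 2345 in depressive and control prefrontal cortex. It was 91.1-fold lower in cerebellum in depressive and 109-fold lower in control rats (fit -6.64 ± 0.09 SE on the log2 scale, adjusted p = 0.00275), and under normexp the mean log2 difference was -4.94. Pcdh7 gave 224 and 245 in depressive and control cerebellum, against 1708 and 1525 in depressive and control prefrontal cortex, and was 10.1-fold and 8.01-fold lower in cerebellum (adjusted p = 0.00382).

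Pcdh19, whose loss causes an X-linked epilepsy in humans, gave 1732 and 1800 in depressive and control cerebellum, against 4181 and 3969 in depressive and control prefrontal cortex (adjusted p = 0.00477). Pcdh17, found at synapses of corticobasal ganglia circuits in the mouse, gave 4339 and 3818 in depressive and control cerebellum, against 9499 and 8570 in depressive and control prefrontal cortex (adjusted p = 0.00333). The smaller differences of Pcdh20, Pcdh11x and Pcdh18 ranged between -1.15 and -1.35 on the log2 scale over both states (adjusted p from 0.00409 to 0.00433), and under normexp Pcdh11x (mean -0.75) and Pcdh18 (mean -1.03) no longer reached 2-fold in both states. The bright Pcdh9 differed least, by -0.37 in depressive and -0.31 in control rats (adjusted p = 0.0234), from unscaled signals of 9273 and 7416 in depressive and control cerebellum, against 8965 and 7132 in depressive and control prefrontal cortex. The Pcdh9 call was lost when any 1 array was left out and without the state term. Pcdh12, known from endothelium, was well above background on the control prefrontal cortex array only and did not pass the test (adjusted p = 0.172). Its bound of -2.40 on the log2 scale counts among the genes lower by 2-fold or more in control rats. It leans on a probe whose 2 spots disagreed between the states, as given below.

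The 24 clustered protocadherins, which lie side by side on chromosome 18, moved less, and the 2 large clusters within them differed in count. Over all 24, 13 were called higher in cerebellum, 5 lower and 6 not, with a median log2 difference of 0.35 in depressive and 0.48 in control rats. Among the 12 Pcdhga and Pcdhgb genes 9 were called higher and 1 lower, with medians of 0.93 in depressive and 0.91 in control rats. Of these higher genes, Pcdhga1, Pcdhga2 and Pcdhga10 were no longer called under normexp, which lost no Pcdhb call. With no filter on dim genes Pcdhga2, Pcdhga10, Pcdhb6 and Pcdhb9 were not called. Among the 11 Pcdhb genes 4 were called higher, 3 lower and 4 not, none was at 2-fold, and the medians were -0.08 in depressive and 0.20 in control rats. Over all genes the fit called 63.7%, 29.6% higher and 34.1% lower, and it called 7 of these 11 Pcdhb genes. The difference between the clusters was not tested. Array probes of these similar genes can catch each other's RNA, so single values are uncertain.

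Pcdhgb7 gave 546 and 453 in depressive and control cerebellum, against 109 and 84.5 in depressive and control prefrontal cortex, and was 3.74-fold higher in cerebellum in depressive and 4.17-fold higher in control rats (adjusted p = 0.00359). Pcdhga5 gave 80.2 and 90.7 in depressive and control cerebellum, against 19 and 17.3 in depressive and control prefrontal cortex, the last not well above background, so that the control difference was at least 4.07-fold (adjusted p = 0.00688). Under normexp its mean log2 difference of 1.85 became 0.57, under 2-fold. For both genes the cerebellum signals lay above the cortex signals. Pcdhga8, with 160 and 141 in depressive and control cerebellum, against 46.8 and 37.2 in depressive and control prefrontal cortex, was higher in cerebellum by 1.36 and 1.56 on the log2 scale in depressive and control rats (adjusted p = 0.00565). Pcdhga11, with 314 and 298 in depressive and control cerebellum, against 118 and 112 in depressive and control prefrontal cortex, just reached 2-fold (1.00 and 1.05 on the log2 scale in depressive and control rats, adjusted p = 0.00498). Under normexp the mean log2 differences of Pcdhga8 and Pcdhga11 were 0.63 and 0.66, under 2-fold. Their promoters are the 3 printed in full above.

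Pcdhgc5, a C-type gene at the far end of the cluster, was called lower in cerebellum, with 2011 and 2074 in depressive and control cerebellum, against 3394 and 3134 in depressive and control prefrontal cortex. Its log2 difference was -1.17 in depressive and -0.96 in control rats (adjusted p = 0.00823). Pcdhga7 was called lower (-0.37 in depressive and -0.34 in control rats, adjusted p = 0.0199) through its brightest probe, with 61507 and 60969 in depressive and control cerebellum, against 59785 and 59856 in depressive and control prefrontal cortex. A second probe of Pcdhga7, with 169 and 168.9 in depressive and control cerebellum, against 33.9 and 40.8 in depressive and control prefrontal cortex, went the other way by 1.90 in depressive and 1.69 in control rats, so the direction of Pcdhga7 is unsettled. The call was also lost under quantile normalization. Of the Pcdhb genes, Pcdhb20 stood highest (0.92 in depressive and 0.75 in control rats, adjusted p = 0.00978) and Pcdhb4 lowest (-0.81 and -0.59, adjusted p = 0.0158).

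**Figure D3:**
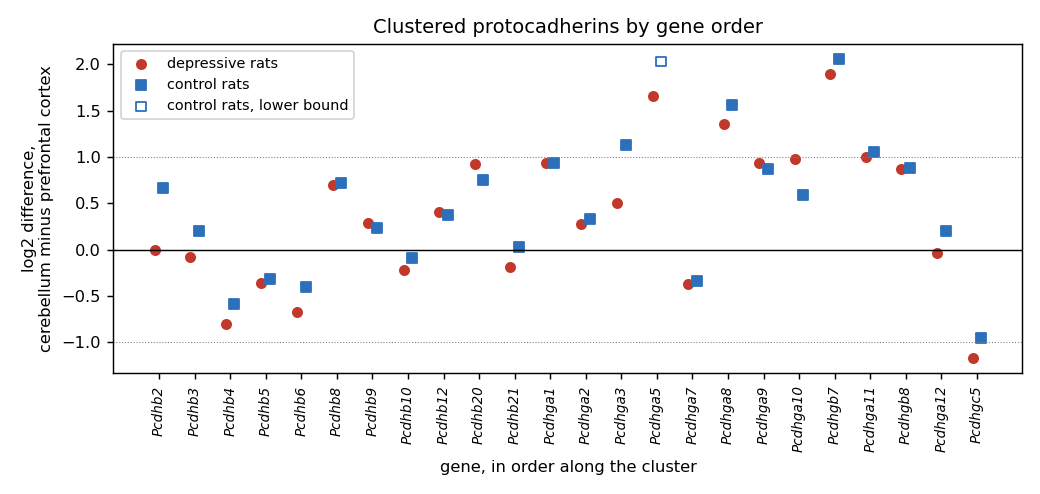
Log2 difference (cerebellum minus prefrontal cortex) of the 24 clustered protocadherins in their order along the chromosome, in depressive rats (red) and control rats (blue), 1 array per group. The open square is a lower bound and dotted lines mark 2-fold. The Pcdhb genes on the left scatter about 0, most Pcdhga and Pcdhgb genes lie above it, and Pcdhgc5 on the right lies below it.

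Of 39 listed partners of the cadherins, 33 were on the array, and the tissue fit called 26 of them, 9 higher and 17 lower in cerebellum, beside 63.7% of all genes (29.6% higher, 34.1% lower). At 2-fold or more in both states 10 of 32 measured partners were found, 1 higher and 9 lower, beside 20.9% of all genes (8.07% higher, 12.8% lower). Ptk2b, a kinase that clustered protocadherins bind, gave 528 and 514 in depressive and control cerebellum, against 8453 and 8431 in depressive and control prefrontal cortex (adjusted p = 0.00275). The planar polarity gene Prickle2 gave 235 and 233 in depressive and control cerebellum, against 1519 and 1535 in depressive and control prefrontal cortex (adjusted p = 0.00275). Both were lower in cerebellum, as was Prickle1 (mean log2 difference -1.64, adjusted p = 0.00321). Jup, or plakoglobin, the catenin of desmosomes, was the one higher at 2-fold, with 9143 and 8947 in depressive and control cerebellum, against 2556 and 2512 in depressive and control prefrontal cortex (adjusted p = 0.00358).

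Between depressive and control rats the cadherin genes differed little. In cerebellum 0 of 50 measured genes were at 2-fold or more, beside 1.12% of all genes, and 1 was at 1.5-fold, beside 3.86%. In prefrontal cortex 1 of 50 was at 2-fold, beside 0.789%, and 2 were at 1.5-fold, beside 2.72%. Their median log2 difference, depressive minus control, was -0.08 in cerebellum (36 of 50 below 0) and 0 in prefrontal cortex, against -0.03 and 0 over all genes. Most genes of the array leaned the same way in cerebellum, with 7726 of 12537 below 0. A limma fit of state with tissue as a covariate called 0 of 47 cadherin genes (smallest adjusted p = 0.656) and 0 of 11623 genes in all (0%), while 6 cadherin genes and 870 genes in all (7.49%) had an unadjusted p under 0.05. With 1 array per group, no difference within a tissue can be tested, and the SE given next is that between spots of like brightness on an array.

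Cdh1 gave 105 in depressive and 56.7 in control prefrontal cortex, a 1.76-fold difference (0.81 ± 0.21 SE on the log2 scale), and 542 in depressive and 432 in control cerebellum (0.21). Its 2 spots differed by 0.61 and 1.01 in prefrontal cortex, and the state fit gave 0.51 ± 0.17 (SE, adjusted p = 0.656). Depressive rats had the higher signal in both tissues. Under normexp the prefrontal cortex difference was 0.36, below the 1.5-fold for which Cdh1 is named. Meningeal and fibroblast markers moved with it: 11 of 11 were higher in depressive than in control prefrontal cortex (median 0.80), with a summed scaled level of 40.4 in depressive and 20.7 in control prefrontal cortex, and all 11 were well above background on every array. Of 7 choroid plexus markers measured in prefrontal cortex, 4 were lower in depressive rats, with a summed scaled level of 3.42 in depressive and 9.64 in control prefrontal cortex. These sums lean on the brightest marker of each list, Ptgds (1.00 on the log2 scale) and Ttr (-2.15). Oligodendrocyte markers were higher in depressive prefrontal cortex too, 12 of 12 (median 0.30), beside 6085 of 12543 genes in all. The part of any of these lists in the Cdh1 difference was not tested.

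Cdh3 gave 547 in depressive and 333 in control cerebellum, a 1.51-fold difference (0.60 ± 0.10 SE on the log2 scale), and 78 in depressive and 75 in control prefrontal cortex (-0.01). Its 2 spots differed by 0.75 and 0.44 in cerebellum, and the state fit gave 0.29 ± 0.17 (SE, adjusted p = 0.71). The cerebellum arrays stood apart and the prefrontal cortex arrays did not. Under normexp the cerebellum difference was 0.48, below 1.5-fold. Of 11 choroid plexus markers, 10 were higher in depressive than in control cerebellum (median 0.59). The summed scaled level of all 11 was 186 in both. That sum lies mostly in the brightest marker, Ttr, which was the 1 not higher (-0.07 on the log2 scale). Meningeal markers were higher in 8 of 11 (median 0.13). The part of either list in the Cdh3 difference was not tested. Red cell markers were at 2-fold or more higher in depressive rats in both tissues, 5 of 5 in each. Of 8 pituitary markers measured in cerebellum, 6 were lower in depressive rats (median -0.61). The part of these 2 lists was not tested either.

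Pcdh12 gave 10.7 in depressive prefrontal cortex, not well above background, and 40.9 in control prefrontal cortex, a bound of at least 4.01-fold lower in depressive rats. Its 2 spots disagreed, at -0.18 and -3.82 on the log2 scale, so the difference rests on 1 spot. Under normexp it was -0.70 on the log2 scale, under 2-fold. All other cadherin genes seen above background in depressive and control rats alike were within 1.5-fold between the states, at most 1.39-fold in either tissue. So were the partners, at most 1.24-fold in cerebellum and 1.22-fold in prefrontal cortex (32 measured in each). Cdh9 in cerebellum (at least 1.27-fold lower in depressive rats), Pcdhga5 in prefrontal cortex (at least 1.04-fold higher) and the partner Arvcf in cerebellum (at least 1.16-fold lower) had bounds only, which set no upper limit.

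**Figure D4:**
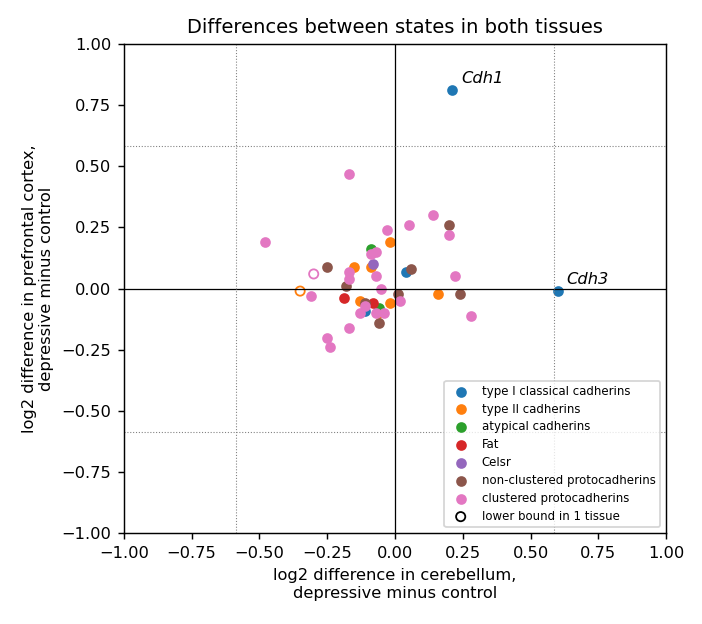
Log2 difference between depressive and control rats in prefrontal cortex (vertical) against that in cerebellum (horizontal) for 49 genes, coloured by role, from 1 array per group. The 2 open points, Cdh9 and Pcdhga5, are lower bounds in 1 tissue. Dotted lines mark 1.5-fold. Cdh1 (0.21 in cerebellum, 0.81 in prefrontal cortex) and Cdh3 (0.60 and -0.01) lie outside them.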

How the data were processed

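One-colour data of 4 arrays were used as deposited. Per the file headers, scans were read with Agilent Feature Extraction 10.7.1.1 (protocol GE1_107_Sep09, genome build rn4), and the deposited scanner files give a background-subtracted processed intensity per spot. Per the labels' protocols, RNA of 4 rats was pooled per group and 400 ng labelled.

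The value table, keyed by sample, was set against each scanner file. Columns of 2 samples, depressive cerebellum and control prefrontal cortex, fitted the file linked to the other one (r of 0.999959 and 0.999991, against 0.933 with their own). The table was followed, and the file names give the same reading. The description field of the depressive samples names the other tissue.

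Control spots and spots with outlier flags were left out, log2 intensity was averaged per probe, and each array's 75th percentile over spots was subtracted. Of 30367 probes, 18355 were named by unversioned accession through RefSeq (GRCr8), and the brightest probe stood for a gene. A gene seen above background on a single array of a pair has a lower bound in place of a fold, taken against that array's lowest signal above background or, where it was higher, the dim signal itself. All 4 arrays lay on 1 slide. Fits used limma 3.58.1 in R 4.3.3 (lmFit, eBayes). Their code was run on simulated data with the same noise level in every gene. That run does not show how well the calls hold in these data, where genes differ in variance. The number of arrays limits the precision.

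The genes, lists and tests were chosen with earlier results of these data known. Named were genes at 2-fold or more the same way in both states, the 2 brightest of each role, genes at 1.5-fold between states, and the 4 partners with the largest mean tissue difference. Pcdhb20 and Pcdhb4 were named after their values were seen, as were the genes named for not passing a test or filter or for opposite signs, and Arvcf. Alternatives were normexp (offset 50, on the median signal, chosen after seeing the data), quantile and median scaling, the mean over probes, other filters on dim genes, the deposited value table, files as linked, and leaving out arrays.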

Additional observations from a re-analysis of the deposited data

Results flagged for a closer look

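The difference between depressive and control rats in Cdh3 was 0.60 in cerebellum and -0.01 in prefrontal cortex on the log2 scale, so the cerebellum difference minus the prefrontal cortex difference was 0.61. It was picked out because the states moved in opposite directions in the tissues, although the prefrontal cortex value lies at 0. With 1 array per group this difference was not tested.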

How the results depend on the processing

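The arrangement of files decides the tissue results. With scanner files taken as linked to the samples, 1 cadherin gene in depressive and 0 in control rats were at 2-fold between tissues (99 and 140 of all genes), 0 in both states, and the tissue fit called 0 cadherin genes and 0 genes in all. The state comparison then gave 26 cadherin genes in cerebellum (3094 of all genes) and 25 in prefrontal cortex (2990), and the state fit called 40 (8428 of all genes). Under that arrangement the state difference was -1.96 for Cdh1 in prefrontal cortex and -1.79 for Cdh3 in cerebellum, and 24 of the 42 genes called by the tissue fit turned sign: Cdh1 (mean tissue difference -0.51), Cdh11 (0.09), Cdh13 (0.07), Cdh22 (0.08), Cdh3 (-0.29), Cdh6 (0.04), Cdh7 (-0.08), Cdh9 (0.18), Celsr3 (-0.01), Fat3 (0.12), Pcdh11x (0.10), Pcdh18 (0), Pcdh19 (0.09), Pcdh20 (0.08), Pcdh7 (0.08), Pcdhga7 (0.09), Pcdhga8 (-0.16), Pcdhgb7 (-0.22), Pcdhgc5 (0.06), Pcdhb20, Pcdhb5, Pcdhb6, Pcdhb8 and Pcdhga10.

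With files matched by the value table, all 24 genes at 2-fold in both states stayed so under quantile and median scaling, the mean over probes and no filter on dim genes, and so did the 22 of them in the value table. Normexp kept 19 (not Pcdh11x, Pcdh18, Pcdhga11, Pcdhga5 and Pcdhga8), and requiring all 4 arrays above background kept 21 (not Cdh9, Fat2 and Pcdhga5). Leaving out 1 array in turn, with no state term, the tissue fit called 36 to 39 cadherin genes and 6262 to 7703 of all genes. The tissue left with 1 array is then assumed to vary like the other. Of the 42 genes, 36 were called the same way without depressive cerebellum, 39 without control cerebellum and 34 without either prefrontal cortex array. The genes lost were Cdh22, Pcdh9, Pcdhga2, Pcdhga7, Pcdhga10, Pcdhb5, Pcdhb6, Pcdhb8, Pcdhb9 and Pcdhb12 in 1 or more of these. The fit compares tissues within each state, and without the state term it called 41, 40 of them among the 42. Normexp kept 39 of the 42 calls (not Pcdhga1, Pcdhga2 and Pcdhga10). No filter on dim genes kept 38 (not Pcdhb6, Pcdhb9, Pcdhga2 and Pcdhga10). Quantile scaling moved the median tissue difference of all genes in depressive rats to 0.06, against -0.06. The mean over probes turned the sign of Pcdhga7 (0.72). Between states in cerebellum, 140 genes at 2-fold became 30 with normexp, 43 with all 4 arrays above background, 347 with no filter and 72 in the value table. In prefrontal cortex, 99 became 13, 33 and 258 under the first 3 of these. The single cadherin gene at 2-fold in prefrontal cortex (Pcdh12) became 0 with normexp, with all 4 arrays above background and in the value table, which does not list it. At 1.5-fold there were 1 in cerebellum and 2 in prefrontal cortex. Under normexp Cdh1 in prefrontal cortex and Cdh3 in cerebellum fell below 1.5-fold (0.36 and 0.48), and its state fit called 5 genes in all and 0 cadherin genes. The cause of these shifts was not tested. The labels give no replicate numbers, so no fit with a replicate number was made.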
